A study of Homo sapiens with 12 samples.

Results

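The 10 genes described here encode the pro-apoptotic side of the BCL2 family. They are the BH3-only genes BCL2L11 (BIM), BBC3 (PUMA), BMF, PMAIP1 (NOXA), BID, BAD, BIK and HRK and the effector genes BAX and BAK1. They were chosen by gene symbol from the 58381 genes of the tables, and all 10 were found. Polyadenylated RNA of HMC-1 sublines was sequenced in 12 libraries, 3 in each of 4 groups. HMC-1 is an established line from a mast cell leukemia that expresses an activated KIT receptor. HMC-1.1 cells carry V560G-KIT as a heterozygous variant, and HMC-1.2 cells carry V560G-KIT together with D816V-KIT. HMC-1.3 clone 1 and HMC-1.3 clone 2 were made from HMC-1.2 by Cas9 editing that undid V560G, so that D816V-KIT is left as the only variant, on 1 allele. The repair template also placed a silent change in the adjacent codon. Each clone descends from a single edited cell after puromycin selection and limiting dilution, steps that HMC-1.1 and HMC-1.2 did not share here, so the KIT genotype and the history of a subline cannot be told apart. All groups were grown in the same serum-containing medium with no added agent.

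Proteins of the BCL2 family decide whether the outer mitochondrial membrane is opened. BAX and BAK1 form the pores, the anti-apoptotic members MCL1, BCL2L1 (BCL-XL), BCL2 and BCL2L2 (BCL-W) bind them and hold them back, and the BH3-only proteins either engage BAX and BAK1 or occupy the groove of the anti-apoptotic members. BIM, PUMA and BID bind the anti-apoptotic proteins broadly, while NOXA is selective for MCL1 and BAD for BCL2, BCL-XL and BCL-W. In mast cells, signals from KIT are known to restrain BIM, in part through phosphorylation and in part through forkhead transcription factors. Much of the control of BIM, BID, BAD and BMF acts on the protein, which RNA levels do not show.

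Values are given as counts estimated by RSEM for each gene and as FPKM, a fragment level scaled for transcript length and sequencing depth. FPKM was used wherever levels of different genes are set side by side, except that genes overlapping a member are given in expected counts, which are not scaled for length. Total expected counts ran from 29225900 to 43181402 per library. Correlations of log2 values within a group were at least 0.991, and replicates differed beyond counting error (chi-square over its degrees of freedom, 2.83 to 7.67). Replicates are labelled as separate samples and were plated in separate wells, so p-values measure only the spread between these samples, which may be technical. Among the mast cell markers, KIT had group means of 356 to 450 FPKM, HDC 852 to 1009 FPKM and GATA2 213 to 240 FPKM, whereas MS4A2, FCER1A, CMA1 and CTSG did not exceed 1.09 FPKM in any group mean. Other mast cell markers split the groups. The tryptase genes TPSAB1 and TPSB2, near-identical copies whose reads may be shared, had means of 592 and 96.6 FPKM in HMC-1.2 and of 29.4 to 44.2 and 35.0 to 40.7 FPKM in the other groups. The protease gene CPA3 was at 3.31 FPKM in HMC-1.2 and at 7.52 to 10.9 FPKM in the others, and HPGDS was at 4.28 FPKM in clone 2 and at 9.22 to 11.9 FPKM in the others. Of 14 markers of other cells, 5 were high enough to be tested. The epithelial keratins KRT8 and KRT18 stood at 6.69 and 7.85 FPKM in HMC-1.3 clone 2 replicate 3 and at no more than 0.83 FPKM in each of the other libraries, while EPCAM was at 0.09 FPKM in that library. NCAM1, a marker of neural and natural killer cells, lay at 7.33 to 9.31 FPKM in HMC-1.2 and at 0.06 to 1.1 FPKM elsewhere. The 14 markers summed to 14.3 to 15.5 FPKM in HMC-1.2, 5.75 to 7.3 FPKM in HMC-1.1, 8.1 to 9.57 FPKM in clone 1 and 5.96 to 20.02 FPKM in clone 2, and 3 or 4 of them were at 0 in every library of a group. The part of these markers in the results was not tested, and calls that change without the keratin library are named with the genes.

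The starts of 3 members are shown because short motifs of transcription factors tied to the family lay in them. RefSeq starts on GRCh38.p14 were used, with the 250 bases before each start written 5′ to 3′ on the strand of the gene. Capitals mark GTAAACA (a forkhead motif), CACGTG (an E-box) and TGACTCA or TGAGTCA (AP-1), searched on both strands. The windows lie at chr2:111120664-111120913 on the plus strand for BCL2L11, at chr19:47232668-47232917 on the minus strand for BBC3 and at chr19:48954625-48954874 on the plus strand for BAX.
BCL2L11: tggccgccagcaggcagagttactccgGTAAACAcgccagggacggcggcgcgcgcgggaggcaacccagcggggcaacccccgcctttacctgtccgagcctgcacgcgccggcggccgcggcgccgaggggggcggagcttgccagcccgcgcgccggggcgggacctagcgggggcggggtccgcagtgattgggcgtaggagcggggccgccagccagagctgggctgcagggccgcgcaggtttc
BBC3: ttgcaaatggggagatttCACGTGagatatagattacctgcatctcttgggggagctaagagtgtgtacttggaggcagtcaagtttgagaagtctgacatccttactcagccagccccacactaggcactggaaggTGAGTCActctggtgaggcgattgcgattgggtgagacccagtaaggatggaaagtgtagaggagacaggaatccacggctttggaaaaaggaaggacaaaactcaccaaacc
BAX: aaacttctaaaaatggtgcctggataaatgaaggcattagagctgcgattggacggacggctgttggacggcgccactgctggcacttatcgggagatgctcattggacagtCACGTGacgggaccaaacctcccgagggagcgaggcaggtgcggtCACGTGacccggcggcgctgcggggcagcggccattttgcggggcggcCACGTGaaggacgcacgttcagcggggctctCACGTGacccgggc
BCL2L11 held 1 forkhead match, BBC3 held 1 E-box and 1 AP-1 match, and BAX held 4 E-boxes. Of the other members with a window, BID, which is not shown, held 1 E-box, seen in 2 of its 5 windows because they overlap. None of these letters occurred in the windows of BMF, PMAIP1, BAD, HRK and BAK1. BIK is named only. Among 34943 windows of the same length over all genes, 2.98% held the forkhead motif, 6.32% the E-box and 4.22% the AP-1 motif. A match is a description of the letters and was not tied to binding of a factor.

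Of the 10 members, 9 passed the filter on low counts and HRK did not. In a joint edgeR quasi-likelihood test over the 4 groups with Benjamini-Hochberg adjustment over all 15944 genes tested, 8 of the 9 differed between groups at an adjusted p under 0.05, beside 71.3% of all genes tested. BBC3 had the smallest adjusted p (1.85e-13) and BIK was the member that did not pass (adjusted p = 0.275). The plot of FPKM per library shows these levels.

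**Figure D1:**
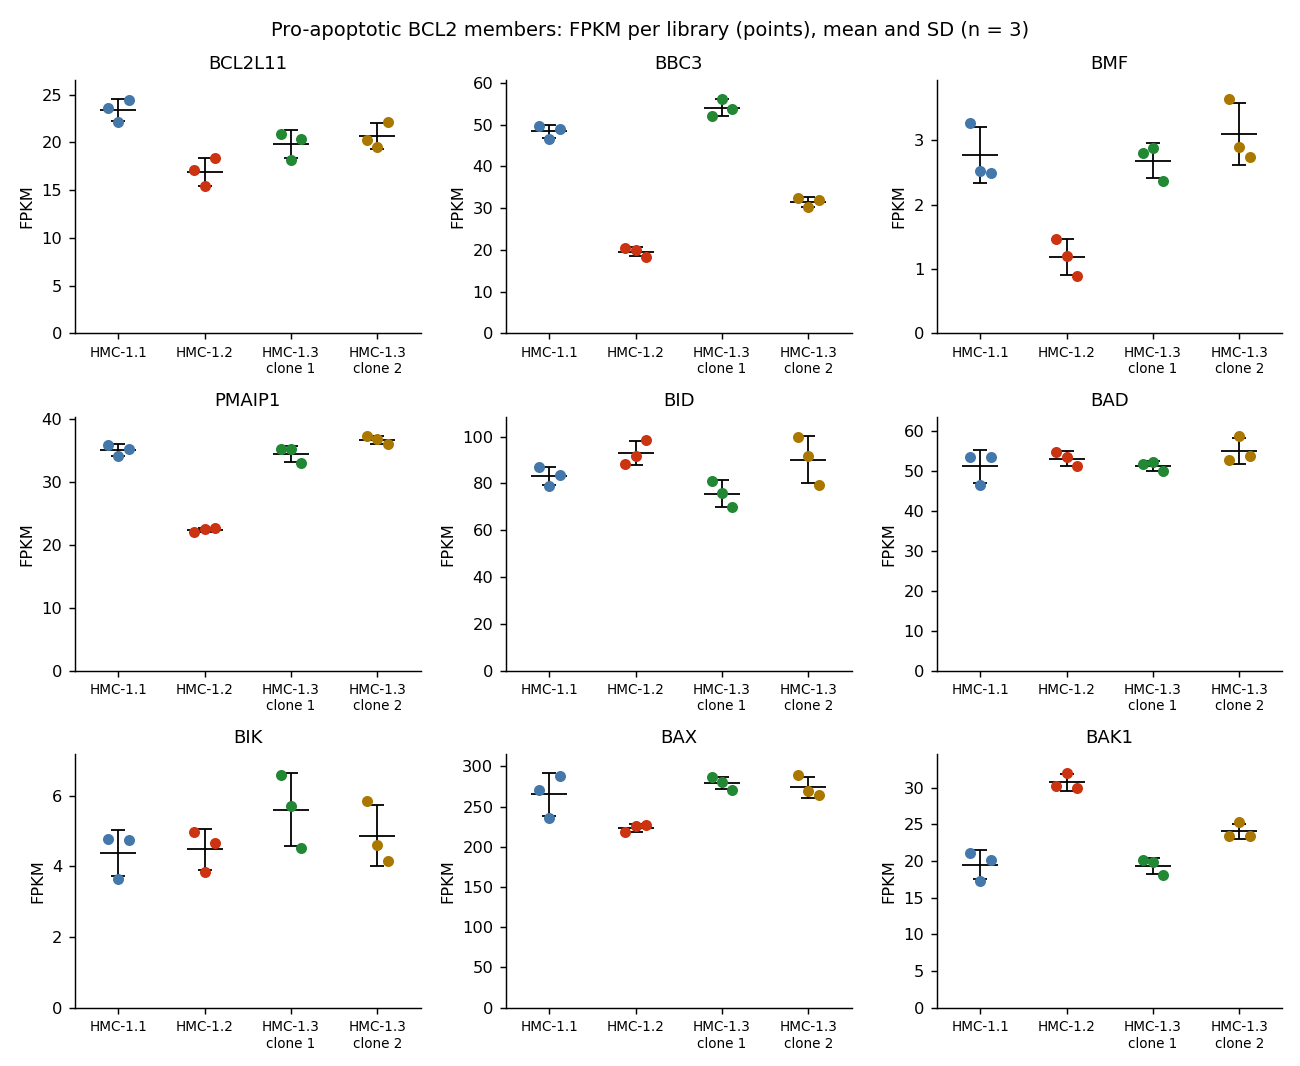
FPKM of the 9 tested members in each library, 1 panel a gene, with the 4 groups on the x axis and points for the 3 libraries of a group, a bar for the mean and whiskers for the SD. BBC3 lies at 4 separate levels, BMF and PMAIP1 lie lowest in HMC-1.2, and BAK1 lies highest in HMC-1.2.

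In each pair, genes were counted by adjusted p alone and, more strictly, with a fold change over 1.5 in addition. Against HMC-1.2, clone 1 had 5 members higher and 3 lower by adjusted p, beside 30.1% and 29.3% of all genes, and 3 passed with the fold (BBC3, BMF and BAK1), beside 20% of all genes. Clone 2 had 5 higher and 2 lower, beside 24.7% and 23.8%, and 3 with the fold (BBC3, BMF and PMAIP1), beside 16.5%. HMC-1.1 had 5 higher and 3 lower, beside 27.2% and 26.5%, and 4 with the fold (BBC3, BMF, PMAIP1 and BAK1), beside 17.6%. The 5 higher members were BCL2L11, BBC3, BMF, PMAIP1 and BAX in each of these pairs, which share the HMC-1.2 libraries.

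The pairs without HMC-1.2 showed fewer differences among the members. Clone 1 against HMC-1.1 had 1 member higher and 1 lower, beside 8.87% and 9.83% of all genes, and 0 with the fold, beside 1.01%. Here 2 members passed an unadjusted p under 0.05 in edgeR, and DESeq2 also called 0 with the fold. Clone 2 against HMC-1.1 had 2 higher and 2 lower, beside 18.5% and 17.5%, and 1 with the fold (BBC3, lower), beside 8.19%. Clone 2 against clone 1 had 4 higher and 1 lower, beside 24.7% and 25.5%, and 1 with the fold (BBC3, lower), beside 12.6%. The median log2 fold change of the 9 members was 0.26, 0.22 and 0.19 when clone 1, clone 2 and HMC-1.1 were set against HMC-1.2, where the median of all genes lay at 0.01, -9.1e-05 and 0.01.

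**Figure D2:**
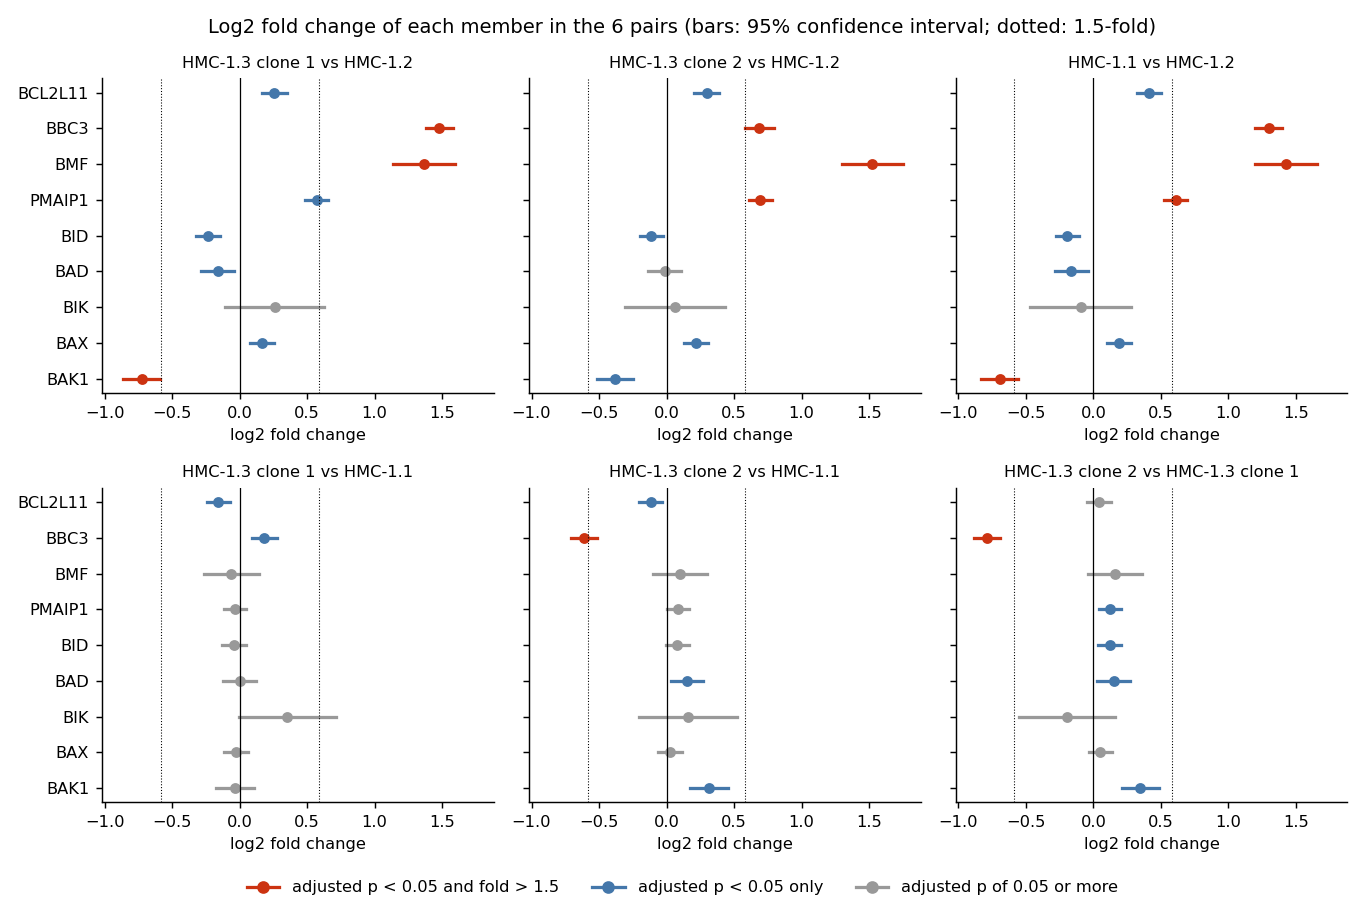
Log2 fold changes of the 9 tested members from edgeR, 1 panel a pair, first group minus second, with 95% confidence intervals as bars and dotted lines at 1.5-fold. Red marks members past an adjusted p of 0.05 and 1.5-fold, blue those past the adjusted p alone and grey the others, and BBC3 is the red member in both lower panels that hold clone 2.

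BBC3, which encodes the broadly binding BH3-only protein PUMA, showed the most graded pattern. It stood at 18.3, 19.9 and 20.4 FPKM in HMC-1.2 and at 30.3, 32.0 and 32.3 FPKM in clone 2. It stood at 46.6, 49.0 and 49.6 FPKM in HMC-1.1 and at 52.2, 53.9 and 56.3 FPKM in clone 1. No library of any group overlapped with a library of another group. The order of the means was clone 1 (54.1 ± 2.07 FPKM, SD, n = 3), HMC-1.1 (48.4 ± 1.60), clone 2 (31.5 ± 1.11) and HMC-1.2 (19.6 ± 1.1), and all neighbours in this order differed in edgeR. Against HMC-1.2, BBC3 rose by 1.48 on the log2 scale in clone 1 (SE 0.05, adjusted p = 7.73e-14), by 1.3 in HMC-1.1 (SE 0.05, adjusted p = 4.97e-13) and by 0.69 in clone 2 (SE 0.05, adjusted p = 3.45e-09).

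The edited clones differed from each other in BBC3. Clone 2 was lower than clone 1 by a log2 fold change of -0.79 (SE 0.05, adjusted p = 3.41e-10), which is 0.578 times the clone 1 level. It was lower than HMC-1.1 by -0.61 (SE 0.05, adjusted p = 1.77e-08). The distance between clone 1 and HMC-1.1 was small, at 0.18 (SE 0.04, adjusted p = 0.00902), and did not pass when HMC-1.1 replicate 2 (0.15, adjusted p = 0.0525) or clone 1 replicate 2 (0.14, adjusted p = 0.0605) was left out, nor in limma on FPKM.

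BMF encodes a BH3-only protein that is held at the cytoskeleton through dynein light chain, and it had the lowest FPKM of the members detected. Expected counts were 98, 118 and 153 in HMC-1.2, against 354, 378 and 435 in HMC-1.1. They were 341, 348 and 395 in clone 1 and 368, 463 and 464 in clone 2. HMC-1.2 lay below every library of the other groups, which overlapped with each other. BMF rose in each group against HMC-1.2, by a log2 fold change of 1.36 in clone 1 (SE 0.11, adjusted p = 9.83e-09), 1.52 in clone 2 (SE 0.11, adjusted p = 2.38e-09) and 1.42 in HMC-1.1 (SE 0.11, adjusted p = 6.5e-09).

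The remaining groups could not be told apart in BMF. The log2 difference of clone 2 against clone 1 was 0.16 with a 95% confidence interval from -0.04 to 0.36, and that of clone 1 against HMC-1.1 was -0.06 with an interval from -0.26 to 0.14. In FPKM the means were 1.19 ± 0.29 in HMC-1.2, 2.68 ± 0.27 in clone 1, 2.77 ± 0.44 in HMC-1.1 and 3.10 ± 0.49 in clone 2 (SD, n = 3). The size of the change depended on the scale, since in limma on log2(FPKM + 1), which understates changes of low genes, BMF differed from HMC-1.2 by 0.76 to 0.91. The length that counts and FPKM of BMF imply together also varied, with means of 3.26 kb in HMC-1.2 and 3.63 to 3.82 kb in the other groups and SDs of 0.23 to 0.63 kb.

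PMAIP1 encodes NOXA, the BH3-only protein that binds MCL1. It stood at 22.0, 22.5 and 22.6 FPKM in HMC-1.2. It stood at 32.9, 35.1 and 35.1 FPKM in clone 1, at 34.0, 35.2 and 35.8 FPKM in HMC-1.1 and at 35.9, 36.8 and 37.2 FPKM in clone 2. Every HMC-1.2 library was below every other library. PMAIP1 rose against HMC-1.2 by a log2 fold change of 0.57 in clone 1 (SE 0.04, adjusted p = 2.39e-09), 0.61 in HMC-1.1 (SE 0.04, adjusted p = 1.25e-09) and 0.69 in clone 2 (SE 0.04, adjusted p = 1.97e-10). These folds of 1.49, 1.52 and 1.62 lie around the limit of 1.5, so clone 1 falls just outside the stricter count and the other groups just inside it. Clone 2 was higher than clone 1 by 0.12 (SE 0.04, adjusted p = 0.0151), a call that was lost without clone 1 replicate 3 (adjusted p = 0.0762) or clone 2 replicate 1 (adjusted p = 0.0685), and with total counts, in limma on FPKM and without the resent libraries.

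BCL2L11 encodes BIM, the BH3-only protein most closely tied to survival of mast cells. It stood at 15.4, 17.1 and 18.3 FPKM in HMC-1.2 and at 18.2, 20.4 and 20.9 FPKM in clone 1. It stood at 19.6, 20.2 and 22.2 FPKM in clone 2 and at 22.1, 23.6 and 24.5 FPKM in HMC-1.1. HMC-1.1 was thus highest, and clone 1 overlapped with HMC-1.2 in FPKM. Against HMC-1.2, BCL2L11 rose by 0.41 on the log2 scale in HMC-1.1 (SE 0.04, adjusted p = 2.83e-07), by 0.30 in clone 2 (SE 0.04, adjusted p = 1.64e-05) and by 0.26 in clone 1 (SE 0.04, adjusted p = 5.35e-05), all under 1.5-fold.

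The clones did not differ detectably in BCL2L11 (0.04, 95% confidence interval from -0.05 to 0.13). Both were lower than HMC-1.1, by -0.16 in clone 1 (adjusted p = 0.0145) and -0.12 in clone 2 (adjusted p = 0.0338). The first of these calls was lost without clone 1 replicate 2 (-0.12, adjusted p = 0.079), and the second when any 1 of the 6 libraries was left out (adjusted p from 0.0571 to 0.12), and neither passed in limma on FPKM. BCL2L11 shares 727 exon bases with MIR4435-2HG on the opposite strand, which had a mean expected count of 1373 beside 3089 for BCL2L11. The kit keeps the strand, but whether the counting used it is not given in the sources used here, so reads of this stretch may be shared.

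BID, the BH3-only protein that caspase-8 cleaves to link death receptors to mitochondria, was the most abundant BH3-only transcript. It stood at 88.5, 91.8 and 98.5 FPKM in HMC-1.2 and at 70.0, 75.9 and 81.2 FPKM in clone 1. It stood at 79.1, 83.5 and 87.1 FPKM in HMC-1.1 and at 79.4, 91.6 and 99.7 FPKM in clone 2, whose spread was widest and overlapped with HMC-1.2. BID fell against HMC-1.2 by 0.23 on the log2 scale in clone 1 (SE 0.04, adjusted p = 0.000109) and by 0.19 in HMC-1.1 (SE 0.04, adjusted p = 0.000735), although the latter did not pass in limma on FPKM.

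In clone 2 the change of BID was smaller and rested on few libraries. It was -0.11 against HMC-1.2 (adjusted p = 0.0298), and -0.07 (adjusted p = 0.202) without replicate 3 of clone 2, the library with keratins. Without replicates 1, 2 or 3 of HMC-1.2 its adjusted p was 0.0801, 0.0521 and 0.104. This call was also lost in limma on FPKM, with total counts and without a filter on low counts. Clone 2 was higher than clone 1 by 0.12 (adjusted p = 0.0216), which did not pass without clone 1 replicate 3 (adjusted p = 0.0892), clone 2 replicate 1 (adjusted p = 0.0894) or clone 2 replicate 2 (adjusted p = 0.0879). The difference between the clones was also lost with total counts, in 2 groups alone and without the resent libraries. Against HMC-1.1, BID in clone 2 passed only without replicate 3 of clone 2 (0.12, adjusted p = 0.0403, against 0.08 and adjusted p = 0.138 with it).

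BAD, a BH3-only protein that survival kinases silence by phosphorylation, hardly varied. Its group means were 51.2 ± 4.06 FPKM in HMC-1.1, 51.4 ± 1.23 in clone 1, 53.2 ± 1.76 in HMC-1.2 and 55.2 ± 3.27 in clone 2 (SD, n = 3), and the range of HMC-1.2 (51.3 to 54.8 FPKM) overlapped with that of every other group. In counts, BAD was lower than HMC-1.2 by -0.16 in clone 1 (adjusted p = 0.0238) and in HMC-1.1 (-0.16, adjusted p = 0.0248), and higher in clone 2 than in HMC-1.1 (0.15, adjusted p = 0.0489) and in clone 1 (0.15, adjusted p = 0.0394). None of these 4 calls held in limma on FPKM, and each was lost when any of 3 libraries was left out. BAD shares 404 exon bases with GPR137 on the opposite strand, which had a mean expected count of 1421 beside 1223 for BAD.

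The libraries that decided the calls of BAD can be named. Against HMC-1.2, the call in clone 1 was lost without replicate 1 (adjusted p = 0.0898) or 2 (0.0725) of HMC-1.2 or replicate 3 of clone 1 (0.0625), and the call in HMC-1.1 without replicate 2 of HMC-1.1 (adjusted p = 0.151) or replicate 1 (0.103) or 2 (0.0761) of HMC-1.2. Clone 2 against HMC-1.1 was lost without replicate 2 of HMC-1.1 (adjusted p = 0.244) or replicate 1 (0.0629) or 2 (0.218) of clone 2. It was also lost in DESeq2, in 2 groups alone, with the replicate block and with the term for resent libraries. Clone 2 against clone 1 was lost without replicate 1 (adjusted p = 0.072) or 3 (0.0929) of clone 1 or replicate 2 of clone 2 (0.174). Each of these calls of BAD was also lost with total counts and with the resent libraries left out.

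BIK, a BH3-only protein of the endoplasmic reticulum, was low and did not pass in any pair. Its group means were 4.38 ± 0.64 FPKM in HMC-1.1, 4.48 ± 0.59 in HMC-1.2, 4.87 ± 0.88 in the clone 2 libraries and 5.61 ± 1.04 in clone 1 (SD, n = 3), with 87 to 168 counts per library. The groups overlapped. Its intervals were wide, and the log2 difference of clone 1 against HMC-1.1 was 0.35 with a 95% confidence interval from -0.01 to 0.72, which reaches past a 1.5-fold change. With the 3 libraries labelled as resent left out, an alternative chosen after seeing the data, BIK in clone 1 differed from HMC-1.2 (0.48, adjusted p = 0.0367), from HMC-1.1 (0.49, adjusted p = 0.0463) and from clone 2, which was lower by -0.48 (adjusted p = 0.0357).

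HRK, a BH3-only gene best known from neurons, had 0 counts in all 12 libraries. A count of 0 allows up to 3 counts, which is 0.0695 to 0.103 CPM (counts scaled to the library total) depending on the library, and this limit covers counting error only. No fold change is given for it.

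BAX was by far the most abundant member and held close to the same share of the FPKM of all members in every group, from 48.1% ± 0.39 in HMC-1.2 to 51.5% ± 0.26 in clone 1 (SD, n = 3). It stood at 218, 226 and 227 FPKM in HMC-1.2 and at 271, 280 and 286 FPKM in clone 1. It stood at 265, 269 and 289 FPKM in clone 2 and at 236, 271 and 288 FPKM in HMC-1.1. Each HMC-1.2 library was below every other library, and the remaining groups overlapped. BAX rose against HMC-1.2 by a log2 fold change of 0.16 in clone 1 (SE 0.04, adjusted p = 0.00295), 0.22 in clone 2 (SE 0.04, adjusted p = 0.000401) and 0.19 in HMC-1.1 (SE 0.04, adjusted p = 0.00105). On log2(FPKM + 1), limma gave 0.32, 0.29 and 0.24 for the same pairs, and the length that counts and FPKM imply together was 0.537 ± 0.017 kb in clone 1 and 0.576 ± 0.010 kb in HMC-1.2.

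BAK1, which encodes the other pore-forming effector, moved the opposite way to BAX. It stood at 30.0, 30.2 and 32.0 FPKM in HMC-1.2 and at 23.4, 23.4 and 25.3 FPKM in clone 2. It stood at 17.3, 20.1 and 21.1 FPKM in HMC-1.1 and at 18.0, 19.8 and 20.1 FPKM in clone 1. HMC-1.2 was above and HMC-1.1 and clone 1 were below every clone 2 library. BAK1 fell against HMC-1.2 by 0.73 on the log2 scale in clone 1 (SE 0.06, adjusted p = 4.38e-08), by 0.69 in HMC-1.1 (SE 0.06, adjusted p = 9.35e-08) and by 0.38 in clone 2 (SE 0.06, adjusted p = 9.01e-05). Clone 2 was higher than clone 1 (0.35, SE 0.07, adjusted p = 0.000289) and than HMC-1.1 (0.31, SE 0.06, adjusted p = 0.00111), while clone 1 and HMC-1.1 were not told apart (-0.03, 95% confidence interval from -0.17 to 0.11).

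The ratio of BAX to BAK1 FPKM within a library was 7.29 ± 0.27 in HMC-1.2, 11.4 ± 0.85 in clone 2, 13.6 ± 0.73 in HMC-1.1 and 14.5 ± 0.49 in clone 1 (SD, n = 3). The HMC-1.2 libraries (7.05 to 7.58) and the clone 2 libraries (10.6 to 12.3) did not overlap with the others, whereas HMC-1.1 (12.9 to 14.3) and clone 1 (14.1 to 15.0) did.

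The share of single genes in the BH3-only transcripts differed between groups. BBC3 held 9.29% ± 0.66 of the summed BH3-only FPKM in HMC-1.2, 13.0% ± 0.78 in clone 2, 19.5% ± 0.33 in HMC-1.1 and 22.2% ± 1.21 in clone 1 (SD, n = 3). BID held 44.1% ± 1.8 in HMC-1.2, 37.2% ± 2.54 in clone 2, 33.5% ± 0.44 in HMC-1.1 and 31.0% ± 1.27 in clone 1. PMAIP1 held 10.6% ± 0.17 in HMC-1.2, 14.1% in the means of HMC-1.1 and clone 1 and 15.1% ± 0.43 in clone 2. Shares of a sum move together, and BID in clone 2 (90.2 FPKM, beside 92.9 FPKM in HMC-1.2) held a smaller share of a larger sum. The sum over the BH3-only genes was 211 ± 3.41 FPKM in HMC-1.2 and 242 to 248 FPKM in the other group means. As all of this is bulk RNA, fewer expressing cells and less RNA per cell cannot be told apart.

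Of the 6 anti-apoptotic members, 4 were tested, and BCL2A1 and BCL2L10 had group means of at most 0.08 FPKM. MCL1, which NOXA, BIM and PUMA bind, stood at 122, 122 and 128 FPKM in HMC-1.2, at 91.1, 92.5 and 94.5 FPKM in clone 2, at 76.0, 77.0 and 78.8 FPKM in HMC-1.1 and at 67.2, 69.7 and 70.2 FPKM in clone 1. No group overlapped with another in MCL1, and the order was the reverse of that of BBC3. MCL1 fell against HMC-1.2 by 0.88, 0.43 and 0.69 on the log2 scale in clone 1, clone 2 and HMC-1.1 (adjusted p = 4.65e-14, 5.33e-10 and 1e-12). It was higher in clone 2 than in clone 1 (0.44, adjusted p = 8.48e-10).

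BCL2L1 was the most abundant anti-apoptotic transcript, at 184 ± 3.07 FPKM in HMC-1.2 and 227 to 238 FPKM in the other group means. It rose against HMC-1.2 by 0.32 in clone 1 (adjusted p = 2.66e-07), 0.27 in clone 2 (adjusted p = 2.36e-06) and 0.28 in HMC-1.1 (adjusted p = 1.37e-06). BCL2 was higher in clone 2 (7.90 ± 0.54 FPKM) than in clone 1 (5.24 ± 0.13), by a log2 fold change of 0.62 (adjusted p = 5.08e-08). BCL2L2 fell by 0.42 to 0.53 on the log2 scale against HMC-1.2 in the other groups. Summed over the anti-apoptotic members the group means lay close together, from 321 to 336 FPKM.

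The sum of BCL2L11, BBC3, PMAIP1 and BMF was also set against MCL1 alone. These 4 genes were each higher, and MCL1 lower, in every group relative to HMC-1.2, so the choice of genes fixes the direction against HMC-1.2. The ratio was 0.485 ± 0.015 in HMC-1.2, 0.991 ± 0.016 in clone 2, 1.42 ± 0.07 in HMC-1.1 and 1.61 ± 0.06 in clone 1 (SD, n = 3), and the libraries of the 4 groups did not overlap. With all BH3-only members in the sum, BID included, the ratio to MCL1 was 1.7 ± 0.02 in HMC-1.2, 2.61 ± 0.16 in clone 2, 3.22 ± 0.21 in HMC-1.1 and 3.53 ± 0.18 in clone 1, and the HMC-1.1 and clone 1 libraries overlapped. Set against the whole anti-apoptotic sum, the BH3-only sum differed less, at 0.647 ± 0.004 in HMC-1.2 and 0.720 to 0.773 in the other group means. These are ratios of RNA levels, and no test was made of them.

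**Figure D3:**
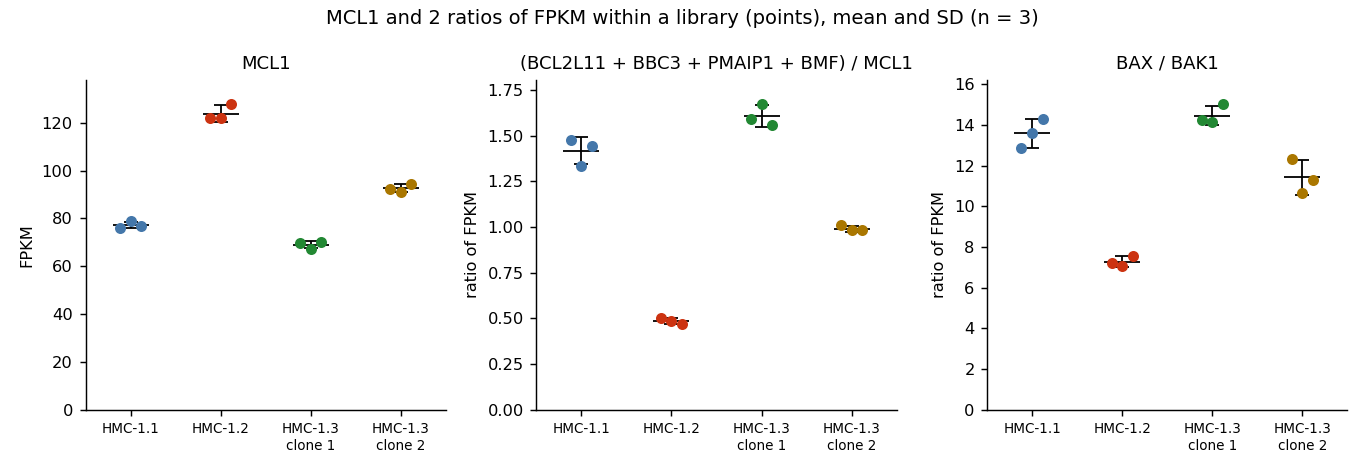
MCL1 in FPKM, the ratio of BCL2L11, BBC3, PMAIP1 and BMF together to MCL1 and the ratio of BAX to BAK1, per library (points) in the 4 groups, with mean and SD. HMC-1.2 is highest for MCL1 and lowest for both ratios, and clone 2 lies between HMC-1.2 and the other groups in all 3 panels.

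The list of transcription factors known to act on BH3-only genes held 12 genes, and all were tested. Among the 12 is MDM2, which is not such a factor and counts as higher in each comparison with HMC-1.2 below. Relative to HMC-1.2, both clone 1 and HMC-1.1 had 7 higher and 3 lower by adjusted p, and clone 2 had 4 higher and 4 lower. Of all genes, 30.1% were higher and 29.3% lower in clone 1, 27.2% and 26.5% in HMC-1.1, and 24.7% and 23.8% in clone 2. DDIT3 (CHOP), a stress factor that can induce BIM and PUMA, stood at 15.6 ± 1.18 FPKM in HMC-1.2, 18.0 ± 0.46 in clone 2, 31.7 ± 2.56 in HMC-1.1 and 57.5 ± 2.93 in clone 1. It rose by a log2 fold change of 1.81 in clone 1 (adjusted p = 1.85e-12) and 0.95 in HMC-1.1 (adjusted p = 1.85e-08) against HMC-1.2, and was not told apart from it in clone 2 (0.15, adjusted p = 0.144). Clone 2 was lower than clone 1 by -1.66 (adjusted p = 1.02e-11).

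MDM2, a ubiquitin ligase, was higher than in HMC-1.2 by 0.37, 0.66 and 0.59 in clone 1, clone 2 and HMC-1.1 (adjusted p = 2.57e-07, 1.67e-10 and 9.05e-10). It was also higher in clone 2 than in clone 1 (0.29, adjusted p = 6.19e-06). MYC rose against HMC-1.2 by 0.24, 0.43 and 0.50 in clone 1, clone 2 and HMC-1.1 (adjusted p = 1.71e-06, 1.09e-09 and 1.58e-10).

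Of the 14 binding partners and modifying enzymes of the members, 1 was higher and 9 lower in clone 1 against HMC-1.2, 5 higher and 6 lower in clone 2, and 2 higher and 8 lower in HMC-1.1, beside all-gene shares of 30.1% and 29.3%, 24.7% and 23.8%, and 27.2% and 26.5%. PIM2, a kinase that phosphorylates BAD, fell by 0.64 on the log2 scale in clone 1 (adjusted p = 1.06e-08) and rose by 0.29 in clone 2 (adjusted p = 0.000116), and the clones differed by 0.94 (clone 2 minus clone 1, adjusted p = 1.76e-10). PIM3, a kinase of the same family, fell by 0.61 and 0.48 in these clones (adjusted p = 2.7e-10 and 6.4e-09). The 14-3-3 gene YWHAZ, whose protein holds phosphorylated BAD in the cytosol, fell by 0.32, 0.29 and 0.30 in clone 1, clone 2 and HMC-1.1 (adjusted p = 2.3e-08, 9.18e-08 and 8.6e-08). YWHAQ, another 14-3-3 gene, was higher in clone 2 than in clone 1 by 0.24 (adjusted p = 3.34e-06).

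Of 8 further relatives of the family, 6 were tested, and BOK and BCL2L14 were not. Against HMC-1.2, 1 was higher and 3 lower in each clone, and 1 was higher and 4 lower in HMC-1.1, beside shares of all genes of 30.1% and 29.3% in clone 1, 24.7% and 23.8% in clone 2, and 27.2% and 26.5% in HMC-1.1. BNIP3L, a mitophagy receptor with a BH3-like stretch, rose against HMC-1.2 by a log2 fold change of 0.50, 0.37 and 0.48 in clone 1, clone 2 and HMC-1.1 (adjusted p = 2.52e-10, 1.54e-08 and 6e-10). MOAP1, which binds BAX, fell against HMC-1.2 by 0.20, 0.50 and 0.24 in clone 1, clone 2 and HMC-1.1 (adjusted p = 0.00186, 2.1e-07 and 0.000565). BCL2L13 fell by 0.35 in clone 2 (adjusted p = 7.81e-07) and by 0.16 in HMC-1.1 (adjusted p = 0.0023). In clone 1 it was not told apart from HMC-1.2 (adjusted p = 0.922). BCL2L13 and MOAP1 were lower in clone 2 than in clone 1 by -0.35 and -0.30 (adjusted p = 1.09e-06 and 8.46e-05), and BECN1, an autophagy protein with a BH3 domain, did not differ detectably between the clones (adjusted p = 0.985). BECN1 fell against HMC-1.2 by 0.17, 0.17 and 0.15 in clone 1, clone 2 and HMC-1.1 (adjusted p = 0.000104, 0.000136 and 0.000455).

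Downstream of BAX and BAK1, 12 genes of mitochondrial release and caspases were tested. By adjusted p, 6 were lower and 6 did not pass in clone 1 against HMC-1.2. In clone 2, 2 were higher and 3 lower, and in HMC-1.1, 7 were lower and 5 did not pass. The shares of all genes that were lower in these pairs were 29.3%, 23.8% and 26.5%, and those higher were 30.1%, 24.7% and 27.2%. CYCS, which encodes cytochrome c, fell by 0.47 on the log2 scale in clone 1 (adjusted p = 4.63e-09) and by 0.29 in HMC-1.1 (adjusted p = 1.94e-06), while clone 2 was at -0.04 (adjusted p = 0.387). APAF1, the scaffold of the apoptosome, fell by 0.26, 0.21 and 0.14 in clone 1, clone 2 and HMC-1.1 (adjusted p = 0.000301, 0.00232 and 0.0303). AIFM1, a flavoprotein released from mitochondria, rose in clone 2 (0.16, adjusted p = 0.00167).

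To see whether a member moved with its stretch of chromosome, the median log2 fold change of the 10 tested genes on each side was set beside it, with positions from Gencode 44 on GRCh38. PMAIP1 (chromosome 18, 59899996 to 59904305, plus strand) stood out. In clone 2 against HMC-1.2 its 20 neighbours, over a span of 5953 kb, had a median of 0.65, beside 0.69 for PMAIP1 itself. By adjusted p, 16 of them were higher, beside 24.7% of all genes. Against HMC-1.1 and against clone 1 the neighbours had medians of 0.66 and 0.65, while PMAIP1 was at 0.08 and 0.12. In each of these pairs 17 neighbours were higher, beside 18.5% and 24.7% of all genes. In clone 1 and HMC-1.1 relative to HMC-1.2 the neighbours lay at -0.04 and -0.02 while PMAIP1 was at 0.57 and 0.61. Thus the rise of PMAIP1 in clone 2 was matched by its neighbours and that in the other groups was not, and the part of the segment in the rise was not tested.

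For the other members the neighbours lay nearer to 0 than those of PMAIP1 in clone 2. BBC3 (chromosome 19, 47220822 to 47232766, minus strand) had neighbours at -0.09, -0.04 and -0.07 in clone 1, clone 2 and HMC-1.1 against HMC-1.2. BMF (chromosome 15, 40087890 to 40108892, minus strand) had neighbours at -0.015, 0.21 and -0.001 in the same pairs, and BAK1 (chromosome 6, 33572547 to 33580293, minus strand) at -0.14, -0.07 and -0.13. Of the 20 neighbours of BAK1, 11, 6 and 9 were lower and 3, 1 and 4 higher, beside 29.3%, 23.8% and 26.5% of all genes lower. BCL2L11 (chromosome 2, 111119378 to 111168444, plus strand) lay close to its neighbours in clone 1, at 0.26 beside 0.24. There 10 of 20 were higher and 3 lower, beside 30.1% and 29.3% of all genes. Its neighbours were at 0.07 and 0.09 in clone 2 and HMC-1.1. The pairs of clone 1 without HMC-1.2 did not show this closeness. In clone 1 against HMC-1.1, BCL2L11 was at -0.16 and its neighbours at 0.16. In clone 2 against clone 1, BCL2L11 was at 0.04 and its neighbours at -0.22. The part of the segment was not tested. BAD had neighbours at -0.11, -0.06 and -0.08, beside -0.16, -0.01 and -0.16 for BAD itself. BAX (chromosome 19, 48954815 to 48961798, plus strand) had neighbours at -0.05, -0.05 and -0.005.

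**Figure D4:**
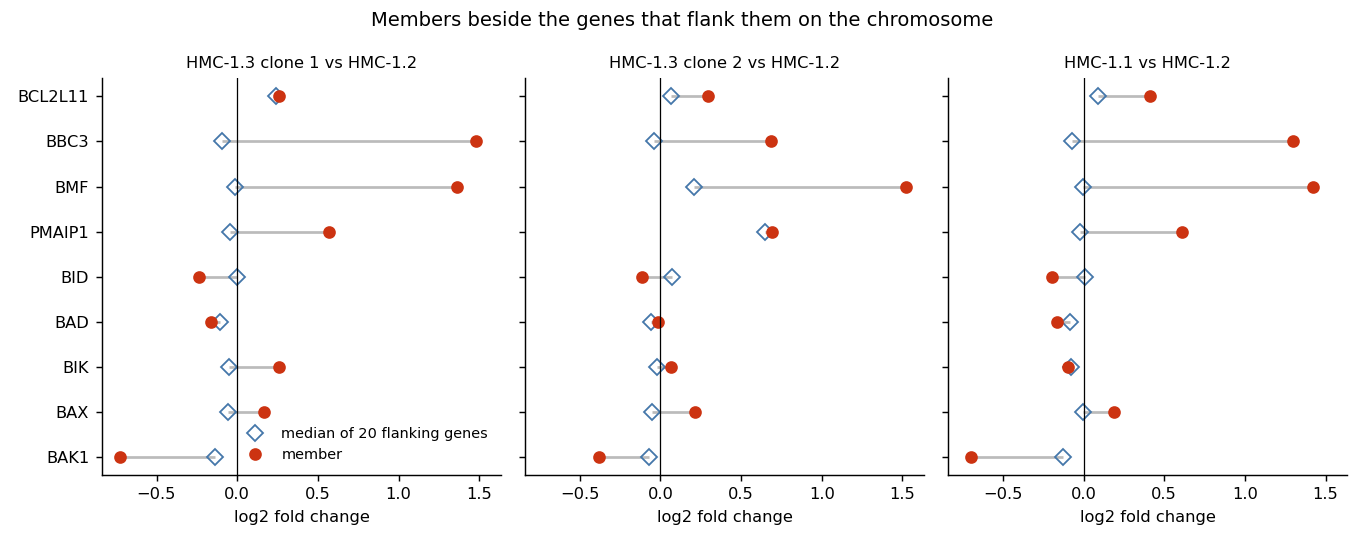
Log2 fold change, relative to HMC-1.2, for each member (filled circles) and the median of the 20 tested genes that flank it on the chromosome (open diamonds), in clone 1, clone 2 and HMC-1.1. Circle and diamond lie close together for PMAIP1 in clone 2, BCL2L11 in clone 1, BAD in both clones and BIK in HMC-1.1, and far apart for BBC3 and BMF.

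The members with the widest range of group means in log2 CPM were BMF (1.52), BBC3 (1.48) and BAK1 (0.73). Across the 12 libraries and 13115 genes whose mean reached 1 CPM, the closest in log2 CPM to BBC3 were CDKN1B (Pearson's r = 0.997), BCAM (0.993) and EIF2S3 (0.993). The 12 points share their library and fall into 4 groups, so these coefficients are descriptions. CDKN1B, which encodes the cell cycle inhibitor p27, stood at 23.3 ± 0.40 FPKM in HMC-1.2, 31.3 ± 0.62 in clone 2, 42.6 ± 0.66 in HMC-1.1 and 46.7 ± 0.76 in clone 1. For BMF the closest genes were TMEM64 (0.990), RP11-384P7.7 (0.989) and COTL1 (0.989), an actin-binding protein, which stood at 749 ± 14.3 FPKM in HMC-1.2 and 1150 to 1187 FPKM in the other group means. For BAK1 they were EXOSC4 (0.990), a subunit of the RNA exosome, EMG1 (0.986), a ribosome assembly factor, and the adaptor GRB2 (0.985).

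Compared by FPKM, BAX was followed by BID and then BAD in HMC-1.2 (92.9 and 53.2 FPKM), HMC-1.1 (83.2 and 51.2 FPKM) and clone 2 (90.2 and 55.2 FPKM). In clone 1, BBC3 (54.1 FPKM) and BAD (51.4 FPKM) stood close together. In HMC-1.2, BBC3 (19.6 FPKM) was below BAK1 (30.7 FPKM) and PMAIP1 (22.4 FPKM), and in clone 1 it was above both (19.3 and 34.4 FPKM).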

How the data were processed

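RNA was captured with oligo-dT beads and sequenced in pairs from a stranded kit (12 libraries, grouped by their labels). The authors used cutadapt 2.10 for trimming, STAR 2.5.3 for alignment (hg38), Picard for duplicates and RSEM 1.3.0 for quantification. The deposited expected counts are not normalized, and 7.39% are not whole. The deposited FPKM adjust for depth and transcript length.

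Counts were rounded to whole numbers and tested with edgeR 4.0.16 in R 4.3.3: filterByExpr, TMM, quasi-likelihood fit of 4 groups and 12 libraries, and Benjamini-Hochberg adjustment over 15944 genes in each of the 6 pairs and in the joint test. Precision rests on the totals per library (29225900 to 43181402) and on the spread between replicates. A call needed an adjusted p under 0.05, or in addition a fold over 1.5. The tests were tested on simulated data. The members and lists were chosen with earlier results of these data known. All 10 members were named, with 4 genes a list by joint p, MCL1, BCL2 and BCL2L1, and 3 genes of most similar pattern for the 3 members of widest range. Of the genes this rule names, 2 are not reported here. Positions came from Gencode 44 (99.0% of identifiers matched), and 9 of 10 members had a RefSeq window.

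The alternatives were DESeq2 1.42.0, other filters and scalings, 2 groups alone, a replicate block, a term for 3 libraries labelled as resent, glmTreat, limma 3.58.1 on log2(FPKM + 1) and log2(FPKM + 0.1), each library left out, and, chosen after seeing the data, the resent libraries left out together.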

Additional observations from a re-analysis of the deposited data

Results flagged for a closer look

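BBC3 was flagged because its change against HMC-1.2 differed between the edited clones. It was 1 of 9 tested members called with the fold in clone 2 against clone 1, beside 12.6% of all genes. The log2 fold change in clone 2 minus that in clone 1 was -0.79 (SE 0.05, adjusted p = 3.41e-10 by edgeR and Benjamini-Hochberg), with a mean of 31.5 ± 1.11 FPKM in clone 2 and 54.1 ± 2.07 FPKM in clone 1 (SD, n = 3), and all 3 clone 2 libraries lay below all 3 clone 1 libraries.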

How the results depend on the processing

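Against a fold of 1.5 itself (glmTreat), the members called fell from 4 to 2 in HMC-1.1 relative to HMC-1.2, from 3 to 2 in clone 2 against HMC-1.2, where BBC3 was lost (adjusted p = 0.0675), and from 1 to 0 in clone 2 against HMC-1.1. Under the other alternatives the counts stayed within 1.5 times, and with each library left out they ran from 3 to 4 in clone 1 against HMC-1.2 and did not move in the other pairs. Over 972 member values, 843 kept their direction and side of the threshold, 96 lost and 4 gained a call, and 29 turned sign, none of which had passed. The losses include those under glmTreat, where a member under 1.5-fold cannot pass. Replicate numbers did not pair the samples (same-number correlations of deviations from -0.037 to 0.095), and a replicate block left the counts at 3, 3, 4, 0, 1 and 1 in the order of the report. No scaling moved the median of all genes by over 0.1.

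BAD in clone 2 against HMC-1.2 turned to 0.00597 with total counts, 0.051 and 0.052 in limma with pseudocounts of 1 and 0.1, and 0.032 without resent libraries, and ran from -0.058 to 0.016 with each library left out. BAD in clone 1 against HMC-1.1 turned to -0.0065 in DESeq2, -0.0011 without a filter, -0.0066 with RLE and -0.0034 in 2 groups, and ran from -0.067 to 0.039. BAX turned to 0.079 and 0.080 in limma in clone 1 against HMC-1.1, with a range from -0.089 to 0.0063, and to -0.027 in both limma fits in clone 2 against clone 1. In clone 2 against HMC-1.1 BAX ran from -0.030 to 0.065. BAK1 in clone 1 against HMC-1.1 turned to 0.017 without resent libraries and ran from -0.12 to 0.027. BIK in clone 2 against HMC-1.2 turned to -0.0039 without them and ran from -0.089 to 0.18, and in HMC-1.1 relative to HMC-1.2 from -0.19 to 0.031. BMF in clone 1 against HMC-1.1 ran from -0.14 to 0.021. The cause was not tested.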
